A study of Mus musculus with 4 samples.

Results

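The genes analysed here were 34 genes of glycolysis and of the response to low oxygen, out of the 21495 genes counted in single cells of mouse embryonic gonads and the adjoining mesonephros. They fall into 14 glycolytic enzymes, 4 genes of glucose transport and flux, 3 genes of the hypoxia-inducible factor (HIF) and its oxygen sensors, and 13 other HIF-induced genes. The set was chosen because earlier results on these same cells had shown glycolysis genes at high levels in pre-supporting cells of XY knockout (KO) gonads at E11.5. The values of XY KO E11.5 below therefore describe the choice, and no test is attached to them. All 34 genes were found in the table.

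There were 4 samples with 1 sample per group, each a pool of several pairs of gonads with mesonephros, and all were labelled with the strain C57BL/6 x 129S4/SvJae. In both XY KO samples, 1 at E11.5 and 1 at E11.75 (E11.5 KO and E11.75 KO from here on), both copies of the miR-17~92 cluster of microRNA genes were deleted by CRISPR/Cas9 in G4 embryonic stem cells. Embryos were made from these cells by tetraploid complementation, so that those of a line were isogenic. The XY control at E11.5 came from the parental, undeleted G4 line by the same route, whereas the XX control at E11.5 came from mating C57BL/6J males with 129 females. How many edited clones gave rise to the KO embryos is not given in the sources used here. No group had replicates. The intervals below are 95% intervals that cover counting error alone, of UMIs for levels and ratios and of cells for shares of cells, and a difference between samples cannot be separated from a difference between pools.

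Glycolysis splits glucose into pyruvate in a fixed series of enzyme steps and yields ATP without oxygen. When oxygen is low, the prolyl hydroxylases that mark HIF1α for destruction slow down, HIF1α accumulates as a protein and binds a short DNA core, the hypoxia response element, at its target genes. Those targets raise glucose uptake and glycolysis, divert pyruvate from mitochondria, and act on mitophagy, collagen and vessel growth. Embryonic tissues are known for low oxygen and active glycolysis before vessels are mature.

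The 4 samples held 52745 cells and 301219830 UMIs (unique molecular identifiers, 1 per captured transcript molecule). The median per cell was 3893 UMIs in the XY control, 4763 in E11.5 KO, 3922 in E11.75 KO and 15509 in the XX control. The deletion itself could not be checked, since miRNAs are not counted in these libraries. Mir17hg, the host transcript of the cluster, stood at 19.8 CPM (counts per 1000000 UMIs of all genes) in the XY control, 156 in E11.5 KO, 161 in E11.75 KO and 18.2 in the XX control. Gm42418, a transcript annotated over ribosomal RNA sequence, stood apart in E11.75 KO, with 1.09% of pre-supporting UMIs against 0.389% to 0.529% in the other 3 samples. Cell types are those of the deposited annotation, in which pre-supporting cells are named bipotential progenitors. For germ, endothelial, immune, sympathoadrenal and adrenal cells every marker listed was highest in its own type. For pre-supporting cells 2 of 7 markers were, because Gata4, Nr5a1 and Wt1 were higher in Sertoli cells, Lhx9 in coelomic epithelium and Wnt4 in supporting-like cells. The 7 markers summed to between 2897 and 3237 CPM in pre-supporting cells and to between 570 and 849 CPM in mesonephros cells. For coelomic epithelium 1 of 6 markers was highest in its own type, so that name rests on the deposited annotation.

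The core that HIF binds was searched as ACGTG and GCGTG on both strands in the window from 250 bases before to 50 bases after each RefSeq start site (GRCm38.p6). A core inside CACGTG is counted on both strands. Of the 29 members with an entry, 27 held a core, or 93.1%, against 46.7% of the 27025 genes with a promoter entry and 59.2% of the 15002 of them that are in the count table. By window, 34 of 42 of the members' windows held a core, or 81.0%. The share was 43.8% of all 32851 windows and 54.4% of the 18882 windows of genes in the count table. Many members were listed as HIF-induced, so these shares are no separate support. Gpi1 and Tpi1 held no such letters in the window searched. Slc2a3, Bnip3l, Ndrg1, Cox4i2 and Bhlhe40 had no entry. The windows below belong to members whose values carry the account, with the core in capitals and each read on the strand that shows it. They lie at chr7:138909597-138909625 (Bnip3, minus strand), chr4:119108697-119108725 (Slc2a1, plus), chr2:71873134-71873162 (Pdk1, plus), chr11:54100834-54100862 (P4ha2, plus), chr7:110627591-110627619 (Adm, minus), chr8:124949306-124949334 (Egln1, minus), chr12:54204087-54204115 (Egln3, minus), chrX:106186938-106186966 (Pgk1, plus) and chr7:126799364-126799392 (Aldoa, plus).
Bnip3: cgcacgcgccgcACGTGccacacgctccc
Slc2a1: gtcccgccccggACGTGctccccaggccc
Pdk1: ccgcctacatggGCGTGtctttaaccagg
P4ha2: tgtgcatcgcatACGTGcagcgcgtggcg
Adm: ggcggacggtggGCGTGgtcagatttgcc
Egln1: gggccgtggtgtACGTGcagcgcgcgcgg
Egln3: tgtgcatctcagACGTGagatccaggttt
Pgk1: gcgtcgtgcaggACGTGacaaatggaagt
Aldoa: cgccccgctaggACGTGactcgagccaca

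The deleted cluster lies on chromosome 14 and gives 6 miRNAs of 4 seed families. Their mature sequences from RefSeq are shown with the seed, bases 2 to 8, in capitals, because a loss of the cluster would act on transcripts through these letters.
miR-17-5p: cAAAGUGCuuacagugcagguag
miR-20a-5p: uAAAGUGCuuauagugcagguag
miR-18a-5p: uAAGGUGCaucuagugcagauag
miR-19a-3p: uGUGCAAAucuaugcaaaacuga
miR-19b-3p: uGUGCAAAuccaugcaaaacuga
miR-92a-3p: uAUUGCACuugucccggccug

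A match to 7 seed bases of any family was found in the longest annotated 3′ UTR of 11 of 34 members, or 32.4%, against 30.8% of 17302 genes. The fuller match of 8 bases was found in 4 members, against 12.3% of all genes. By this count the members were no richer in sites than other genes. Among the enzymes 2 of 14 held a 7-base match, among the other HIF-induced genes 4 of 13, and all 3 of Hif1a, Egln1 and Egln3. The 4 full sites are shown with the matching bases in capitals, on the transcript strand of GRCm38 with the GENCODE M21 annotation. They lie at chr13:6581362-6581389 (Pfkp, minus strand, miR-17 and miR-20a), chr12:54180315-54180342 (Egln3, minus, miR-17 and miR-20a), chr8:124909492-124909519 (Egln1, minus, miR-19) and chr19:41918633-41918660 (Pgam1, plus, miR-92a).
Pfkp: ttatttatcaGCACTTTAtggaagcaag
Egln3: cttcttattcGCACTTTAtgtatgcgtc
Egln1: aaagccagagTTTGCACAgattgtgggt
Pgam1: cagtataataaaggagtgatGTGCAATA

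Pre-supporting cells, the progenitors that become Sertoli or granulosa cells, were compared first, with 1641 cells in the XY control, 1084 in E11.5 KO, 924 in E11.75 KO and 352 in the XX control. Counts were summed over the cells of a type and sample. A ratio is the log2 of the CPM in a sample over that in the XY control, less the median log2 ratio of all genes tested in that type, and is called the relative log2 ratio. That median was -0.09 for E11.5 KO, 0.19 for E11.75 KO and -0.11 for the XX control. A gene was tested if both samples together held 100 UMIs or more of it, and it was called higher or lower at 1.5-fold. The 3 comparisons share the XY control. In such sums more of a transcript in every cell and more cells with it cannot be told apart.

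In E11.5 KO pre-supporting cells the glycolysis and low oxygen genes stood higher as a set. Of 31 members tested, 13 were called higher, or 5 enzymes (Hk2, Pfkl, Pfkp, Aldoa, Tpi1), Slc2a1 and Pdk1, Egln1, and 5 other HIF-induced genes (Bnip3, Adm, P4ha2, Cox4i2, Mif). Over all 9725 genes tested 4.13% were called higher. No member was called lower, where 5.60% of all genes were. Above the median gene stood 28 of the 31. Cox4i2 and Pfkp passed the minimum only because they were high in E11.5 KO, and without them 11 of 29 were called higher. The members together held 0.809% of UMIs in the XY control, 1.10% in E11.5 KO, 0.619% in E11.75 KO and 0.826% in the XX control. The summed level in E11.5 KO was 1.36-fold that of the XY control (1.35 to 1.38). Of 32 members with at least 100 UMIs over the 4 samples, 25 were highest in E11.5 KO. The share of all genes highest in that sample was not counted, and the set was chosen by its values there.

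**Figure D1:**
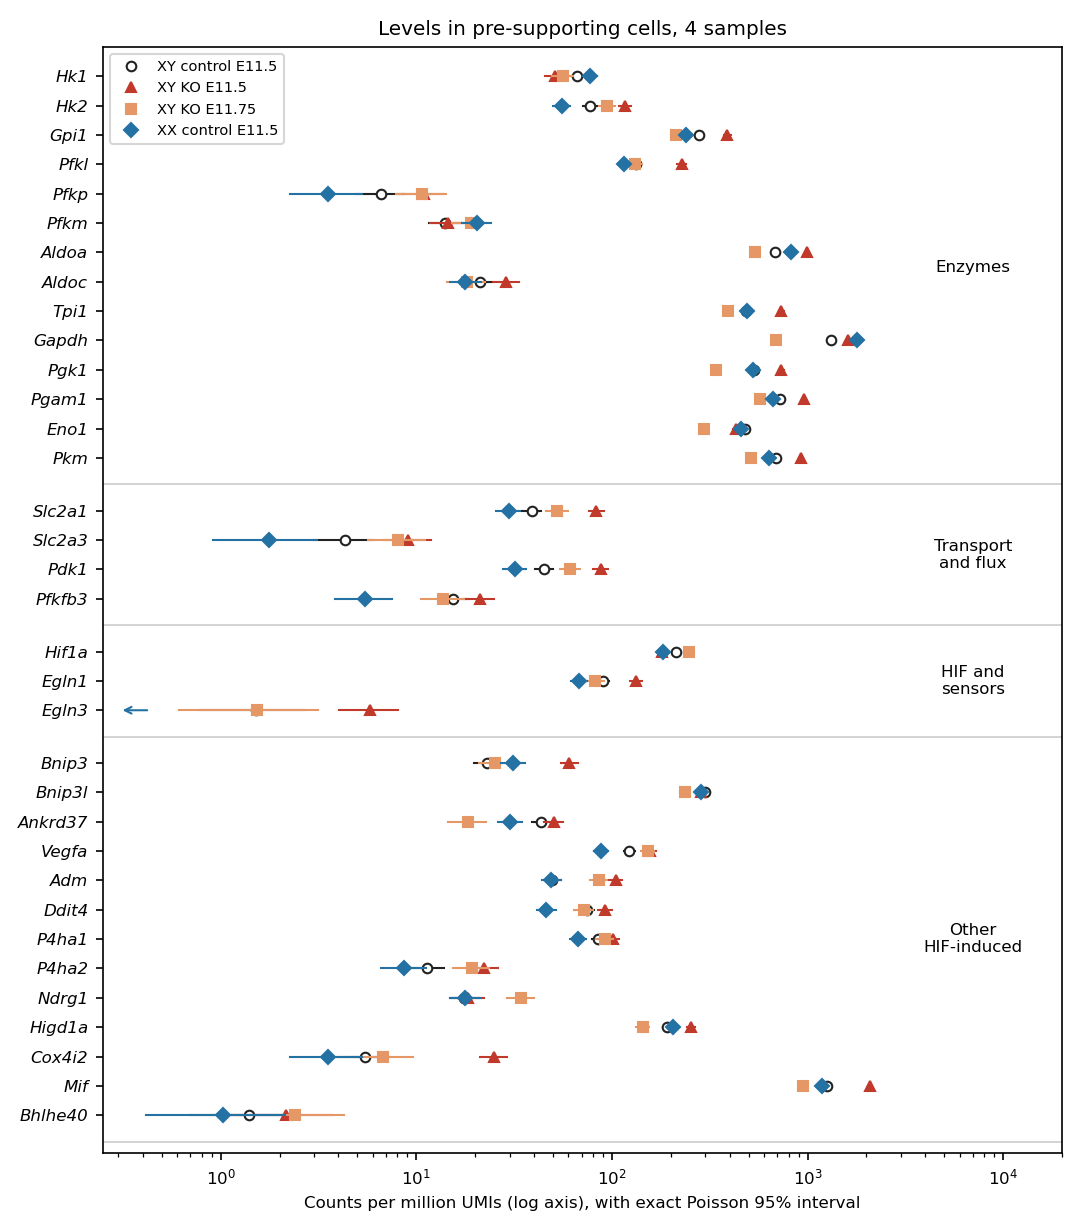
Levels of the 34 members in pre-supporting cells as CPM on a log axis, 1 symbol per sample, with exact Poisson 95% intervals as horizontal lines. An arrow marks a count of 0 (Egln3 in the XX control), starting at the level that 3 counts would give. The XY KO E11.5 triangles lie to the right of the XY control circles for most members and at or left of them for Hk1, Eno1, Hif1a and Bnip3l.

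The enzymes summed to 5499 CPM in the XY control, 7224 in E11.5 KO, 3889 in E11.75 KO and 5921 in the XX control. The median relative log2 ratio of the 14 was 0.55 in E11.5 KO, with a range from -0.28 to 0.87, and 12 stood above the median gene. Pfkl, a phosphofructokinase of the committing step of glycolysis, led them, with 133 CPM in the XY control, 228 in E11.5 KO, 132 in E11.75 KO and 115 in the XX control. Its relative log2 ratio in E11.5 KO was 0.87 (0.75 to 0.98), and E11.5 KO alone stood apart from the other 3 samples, which was not counted over all genes. Pgk1, which makes the first ATP of the pathway, was at 532, 734, 343 and 526 CPM in the same order of samples, a relative log2 ratio of 0.56 (0.50 to 0.62) just under the limit for a call. Gapdh, the dehydrogenase often used as a reference gene, was at 1312, 1608, 690 and 1795 CPM, so that the XX control and not E11.5 KO was highest. Its ratio in E11.5 KO was 0.39 (0.35 to 0.43).

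Not every enzyme followed, and Hk2, which did, varied between libraries. Hk1, the constitutive hexokinase, had 66.0 CPM in the XY control, 50.9 in E11.5 KO, 56.0 in E11.75 KO and 77.4 in the XX control, a ratio of -0.28 (-0.49 to -0.07). Hk2, the inducible hexokinase, was at 77.1, 117, 94.4 and 55.3 CPM, a ratio of 0.69 (0.53 to 0.85). That value rested on the library used, since Hk2 had 88.1 CPM in library rep1 and 142.5 CPM in library rep2 of E11.5 KO, a relative log2 ratio of 0.71 between them. Over the 4 pairings of an E11.5 KO library with an XY control library its ratio was between 0.13 and 1.12, and it was past the limit in 2, both with rep2. Pfkm, the muscle phosphofructokinase, was at 14.1, 14.6, 19.0 and 20.5 CPM, with a ratio of 0.15 (-0.28 to 0.56). Eno1, the enolase, was at 481, 430, 294 and 455 CPM, with a ratio of -0.07 (-0.14 to 0.00). In Sertoli cells of the XY control Eno1 was at 674 CPM, and the 8 Sertoli markers summed in pre-supporting cells to 417 CPM in the XY control, 129 in E11.5 KO, 204 in E11.75 KO and 207 in the XX control, with no marker at 0. Of these 8 markers, 6 were highest in Sertoli cells of the XY control, whereas Sox8 was highest in sympathoadrenal cells and Nr0b1 in supporting-like cells. The part of Sertoli-like cells in the values of Eno1 and of the other members was not tested.

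The remaining enzymes, Gpi1, Aldoa, Aldoc, Tpi1, Pgam1, Pkm and Pfkp, had ratios between 0.50 (Pgam1) and 0.82 (Pfkp) in E11.5 KO. Pfkp rested on 52 UMIs in the XY control and 66 in E11.5 KO. Gapdh, Pgk1, Eno1, Aldoa, Tpi1, Pgam1, Pkm and Mif have near-identical pseudogene copies. Reads that fit more than 1 place can be lost in counting, so their levels are uncertain to that extent, which was not measured. Aldoa is also annotated under 2 gene identifiers. Eno1b, a listed copy of Eno1, held 41 UMIs or fewer in each sample.

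Glucose transport and flux genes differed most as a role. The 3 tested members had a median relative log2 ratio of 1.06 in E11.5 KO. Slc2a1, the glucose transporter GLUT1, had 38.9 CPM in the XY control, 83.3 in E11.5 KO, 52.5 in E11.75 KO and 29.6 in the XX control, with a ratio of 1.19 (0.98 to 1.40) in E11.5 KO. Pdk1, the kinase that keeps pyruvate out of mitochondria by switching off pyruvate dehydrogenase, was at 44.9, 87.6, 61.0 and 31.9 CPM, with a ratio of 1.06. Both genes had the same order of samples, with both KO samples above both controls and intervals that did not overlap between E11.5 KO and any other sample. The share of all genes with such an order or such intervals was not counted, and the intervals cover counting error alone. Pfkfb3, which makes the activator of phosphofructokinase, was at 15.4, 21.1, 13.7 and 5.46 CPM, with a ratio of 0.55 (0.18 to 0.92). Slc2a3, the transporter GLUT3, was at 4.31, 9.12, 8.06 and 1.77 CPM and was below the minimum count for a call. All 4 genes were lowest in the XX control.

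HIF and its sensors divided. Hif1a, the oxygen-regulated subunit itself, had 213 CPM in the XY control, 181 in E11.5 KO, 247 in E11.75 KO and 182 in the XX control, a ratio of -0.15 (-0.26 to -0.04) in E11.5 KO. HIF1α is controlled mainly as a protein, which these counts do not measure. Egln1, the main prolyl hydroxylase and itself a HIF target, was at 89.7, 133, 82.2 and 67.8 CPM, with a ratio of 0.66 (0.51 to 0.81), and was called higher. Egln3, the most inducible of the hydroxylases, had 12 UMIs in the XY control, 35 in E11.5 KO and 7 in E11.75 KO. In the XX control it had 0 of 6781433 UMIs, where 3 counts would give 0.442 CPM. Its level was 1.52 CPM in the XY control, 5.81 in E11.5 KO and 1.53 in E11.75 KO, too few UMIs for a call. The transcript of the factor was thus not higher in the sample in which a sensor and several targets were.

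Other HIF-induced genes spread widely. The 12 tested had a median relative log2 ratio of 0.47 in E11.5 KO, from 0.03 to 2.27, and 5 were called higher. Their summed level was 2183 CPM in the XY control, 3255 in E11.5 KO, 1832 in E11.75 KO and 2019 in the XX control. Most of this sum was Mif, a cytokine, with 1259, 2082, 945 and 1186 CPM, and the other 12 genes summed to 924, 1173, 887 and 833 CPM. Cox4i2 and Bnip3 had the largest ratios of the members tested. Cox4i2, a low-oxygen subunit of cytochrome c oxidase, had 5.45 CPM in the XY control, 24.9 in E11.5 KO, 6.76 in E11.75 KO and 3.54 in the XX control, with a ratio of 2.27 (1.78 to 2.81). Bnip3, a receptor for the removal of mitochondria, was at 23.0, 60.7, 25.3 and 31.3 CPM, with a ratio of 1.49 (1.23 to 1.76). In Bnip3 E11.5 KO stood above the other 3 samples, with intervals that did not overlap theirs. The same held for Cox4i2, but it passed the minimum only through E11.5 KO, so its place here was partly fixed by that rule. How many of all genes stood apart in this way was not counted.

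Adm, the vessel-active peptide adrenomedullin, had 49.6 CPM in the XY control, 105 in E11.5 KO, 85.9 in E11.75 KO and 49.1 in the XX control. Its ratio was 1.17 (0.99 to 1.36) in E11.5 KO, and here both KO samples were above both controls, an order not counted over all genes. P4ha2, a collagen prolyl hydroxylase, was at 11.3, 22.2, 19.2 and 8.70 CPM, with a ratio of 1.07 (0.67 to 1.47). Bnip3l, the close relative of Bnip3, was at 298, 286, 236 and 285 CPM, with a ratio of 0.03 (-0.06 to 0.12). Mif had a ratio of 0.82 (0.78 to 0.86) and was the remaining gene called. The others tested, Ankrd37, Vegfa, Ddit4, P4ha1, Ndrg1 and Higd1a, had ratios between 0.16 (Ndrg1) and 0.49 (Higd1a), and Bhlhe40 had too few UMIs.

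The highest enzyme had a relative log2 ratio of 0.87. Slc2a1 and Pdk1 of transport and flux, and Bnip3, Adm and P4ha2 of the other HIF-induced genes, were at 1.06 or more. These genes were picked by their values, and the role medians gave another order. The median was 1.06 for transport and flux, 0.55 for the enzymes and 0.47 for the other HIF-induced genes. Both controls and E11.5 KO had 2 libraries each (rep1 and rep2, technical replicates in the study's methods), which held different cells, since at most 40 cell barcodes were shared between any pair of libraries. Between the libraries of a sample, the median absolute relative log2 ratio of the members was 0.08 in the XY control, 0.08 in E11.5 KO and 0.11 in the XX control. Past 1.5-fold between libraries were no member in the XY control, Hk2 in E11.5 KO (0.71) and Ndrg1 in the XX control (0.67), where 0.872%, 1.24% and 1.42% of all genes were, so that a count of 0 or 1 is near that of other genes. Over the 4 pairings of an E11.5 KO library with a control library, the median of the members was between 0.53 and 0.55, and between 10 and 13 members were past 1.5-fold higher, where between 4.04% and 4.36% of all genes were. Pfkl, Tpi1, Slc2a1, Pdk1, Egln1, Bnip3, Adm, P4ha2 and Mif were past it in all 4, Aldoa in 3 and Hk2 in 2, whereas Pfkp and Cox4i2 had too few UMIs in single libraries. The libraries are of 1 pool and are not replicates of the group.

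Each cell was then thinned at random to 3000 UMIs to compare cells at 1 depth, which left out 173 cells of the XY control, 54 of E11.5 KO, 93 of E11.75 KO and 3 of the XX control. The enzymes had a mean of 16.5 UMIs per cell in the XY control, 21.4 in E11.5 KO, 11.65 in E11.75 KO and 18.1 in the XX control. The 10th and 90th percentiles were 9 and 25 in the XY control and 12 and 31 in E11.5 KO, so both ends of the distribution lay higher. Above the XY control median of 15.5 were 77.4% of E11.5 KO cells (74.7% to 79.9%), 19.7% of E11.75 KO cells and 59.6% of XX control cells. For the other HIF-induced genes, 46.6%, 79.0%, 35.9% and 39.5% of cells were above the XY control median of 6 UMIs. Without Mif these shares were 49.5%, 62.8%, 51.3% and 45.8% above a median of 2 UMIs, so that much of the difference in this role was in Mif alone.

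**Figure D2:**
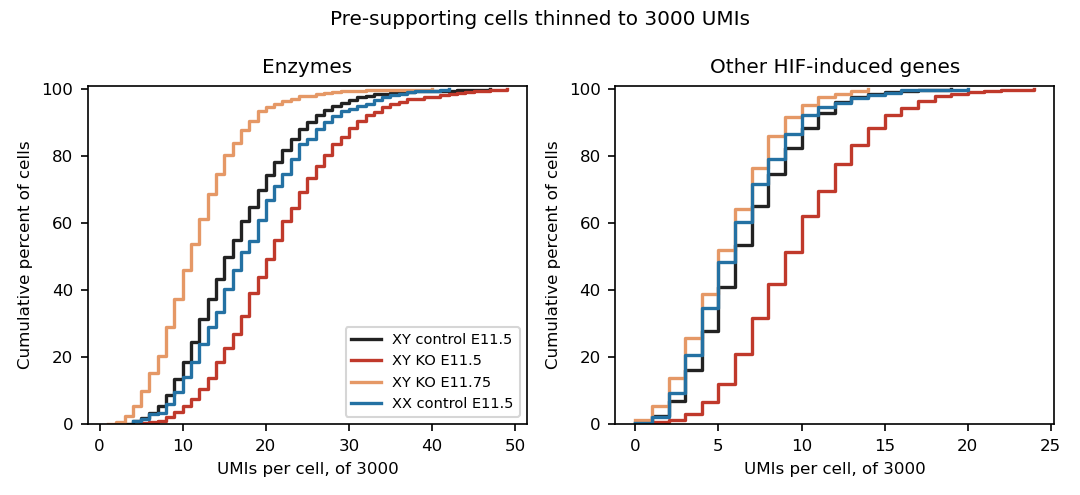
Cumulative percent of pre-supporting cells against the summed UMIs of the enzymes (left) and of the other HIF-induced genes (right) per cell, after thinning to 3000 UMIs, 1 line per sample. The XY KO E11.5 line lies to the right of the XY control line over most of the range in both panels, and the XY KO E11.75 line to the left.

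Cox4i2 was found in few cells. With at least 1 UMI after thinning were 22 of 1468 pre-supporting cells in the XY control (0.942% to 2.26%), 7.96% in E11.5 KO (6.38% to 9.79%), 2.41% in E11.75 KO and 1.72% in the XX control. Without thinning the shares were 2.44%, 12.2%, 2.92% and 6.25%. In germ cells, the type with the lowest Cox4i2 level in the XY control, the thinned shares were 0.360% in the XY control and 1.90% in E11.5 KO (0.393% to 5.45%). The median depth before thinning was 4522 and 5349 UMIs in the pre-supporting cells and 11991 and 12156 in the germ cells of these 2 samples. In both types the share was higher in E11.5 KO than in the XY control, so the germ cell values give no reference at a fixed level.

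The same comparison, E11.5 KO over the XY control, was made in each type with at least 50 cells in both samples, which left out Sertoli cells with 24 cells in E11.5 KO. Among gonadal types, 15 of 25 members tested were called higher in supporting-like cells (2.65% of all genes tested), 14 of 28 in interstitial progenitors (2.83%), 8 of 34 in coelomic epithelium (2.60%) and 6 of 27 in germ cells (2.29%). In the mesonephros the counts were 16 of 34 in mesonephros cells (2.90%), 14 of 30 in mesonephric epithelium (2.15%) and 7 of 31 in mesonephric tubules (3.19%). Among vessel, blood, nerve and adrenal lineages they were 3 of 26 in endothelial cells (1.73%), 3 of 14 in immune cells (12.6%), 1 of 18 in adrenal cells (2.29%) and 0 of 20 in sympathoadrenal cells (2.71%). Aldoc in coelomic and in mesonephric epithelium and Cox4i2 in supporting-like cells passed the minimum only through E11.5 KO, and without them the counts were 7 of 33, 13 of 29 and 14 of 24. The higher levels were thus not particular to pre-supporting cells. The background was highest in immune cells, where the XY control cells had a median of 1488 UMIs against 7040 in E11.5 KO.

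**Figure D3:**
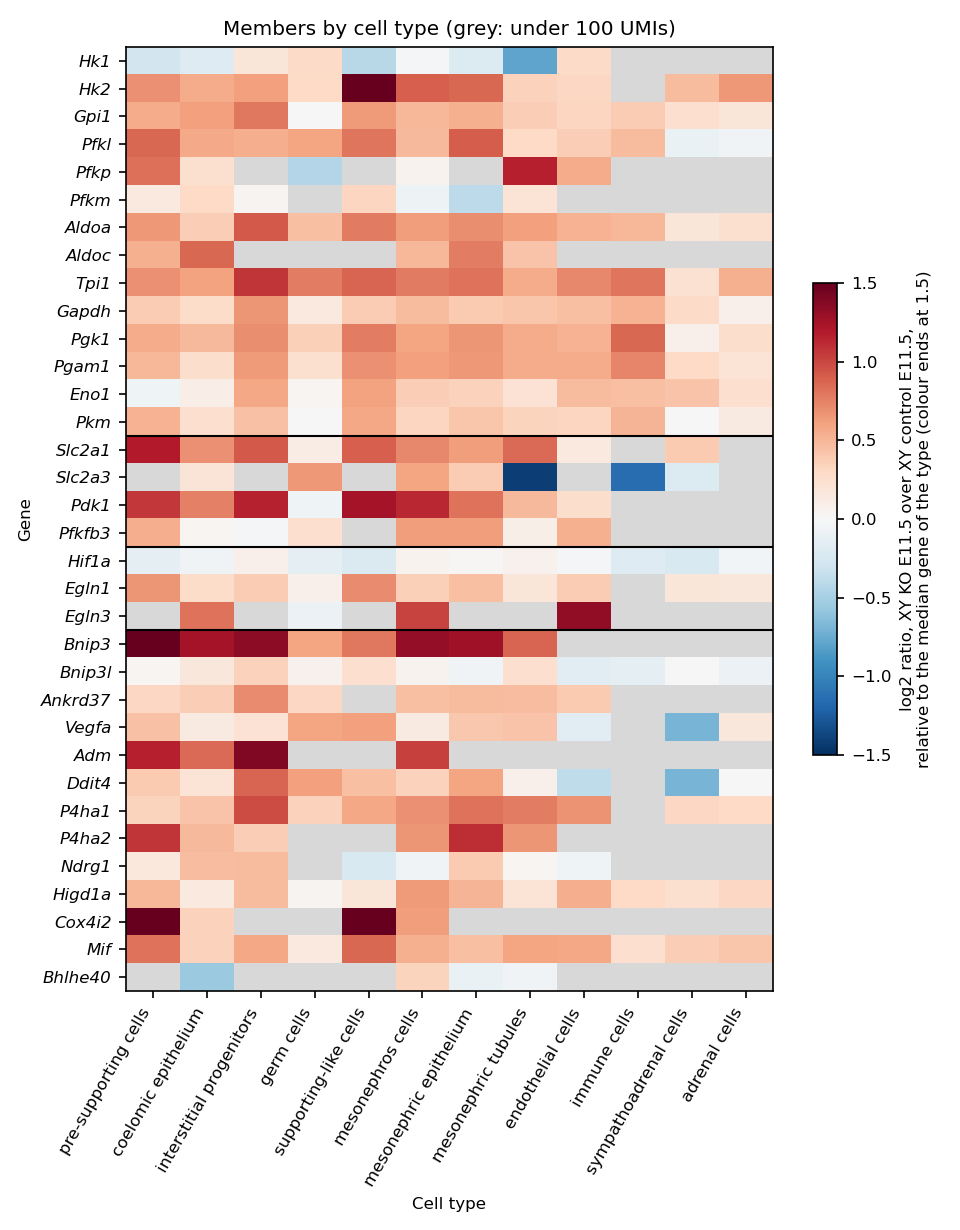
Relative log2 ratio of XY KO E11.5 over XY control E11.5 for each member (rows, grouped by role with black lines) in each of 12 cell types (columns), red for higher and blue for lower, with the colour ending at 1.5 and grey for genes under 100 UMIs. Bnip3, Tpi1, Slc2a1 and Pdk1 are red across most types, Hif1a is near white in all 12, and Slc2a3 is blue in mesonephric tubules and immune cells.

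Since the members tested differ between types, the types were also ordered by the 13 members tested in all of them (9 enzymes with Hif1a, Bnip3l, Higd1a and Mif). The median relative log2 ratio was 0.64 in supporting-like cells, 0.58 in interstitial progenitors, 0.52 in pre-supporting cells, 0.51 in mesonephric epithelium, 0.50 in mesonephros cells, 0.48 in endothelial cells and 0.47 in immune cells. It was 0.37 in mesonephric tubules, 0.28 in coelomic epithelium, 0.22 in sympathoadrenal cells, 0.20 in adrenal cells and 0.14 in germ cells. Supporting-like cells led. Over the 18 members tested in every type but immune cells they led too, with 0.63, and the lowest were sympathoadrenal and germ cells, both at 0.20, and adrenal cells at 0.19. With 1 pool per group, whether neighbours in this order differ was not tested.

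Gene by gene, the number of types with a higher call varied widely, and the genes given here were picked by their values. How many of all genes were called higher in as many types was not counted. Among other HIF-induced genes, Vegfa was called higher in 2 of 11 types, Ddit4 in 3 of 11 and Higd1a in 1 of 12. Bnip3 was called higher in 8 of 8 types tested, with a median of 1.26, a maximum of 1.49 in pre-supporting cells and a minimum of 0.59 in germ cells. Its level in mesonephros cells was 13.7 CPM in the XY control and 32.0 in E11.5 KO, and in interstitial progenitors 13.5 and 31.2. Adm was called in 4 of 4 types, with 15.8 and 38.0 CPM in interstitial progenitors. Tpi1, triose phosphate isomerase, was called in 9 of 12 types with a median of 0.74, in more types than any other enzyme. Slc2a1 was called in 7 of 10 types and Pdk1 in 6 of 9, and both had their lowest ratios in germ cells (0.11 and -0.07).

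Egln3 was called in 3 of 4 types. In endothelial cells it had 16.1 CPM in the XY control and 39.6 in E11.5 KO, with 19.7 in E11.75 KO and 9.30 in the XX control, a ratio of 1.33 (0.93 to 1.75). Cox4i2 was called in 3 of 4, a count that the minimum partly fixed, since it passed in pre-supporting and supporting-like cells only through E11.5 KO, and in supporting-like cells it had 11.3 CPM in the XY control and 30.9 in E11.5 KO. Hk2, with the difference between libraries given above and one of 0.72 in mesonephros cells, was called in 6 of 11, with its largest ratio, 1.75 (1.35 to 2.17), in supporting-like cells, where it had 25.5 CPM in the XY control, 80.8 in E11.5 KO, 49.4 in E11.75 KO and 30.7 in the XX control. Slc2a1 in endothelial cells, which had the highest level of it in the XY control, was at 182 CPM there and 197 in E11.5 KO, a ratio of 0.15 (0.00 to 0.29).

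Other members were not called higher in any type tested. Hif1a was called in 0 of 12, with ratios from -0.23 to 0.08 and a median of -0.05. Hk1, Pfkm, Pkm, Bnip3l, Ndrg1 and Bhlhe40 were also not called higher, and Hk1 was called lower in mesonephric tubules (-0.79), as was Slc2a3, where 4.37% of all genes tested were called lower. Gapdh was called higher in 1 of 12 types and Eno1 in 1 of 12, although both stood above the median gene in at least 11.

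Some members took opposite directions in different types. Slc2a3 was at 12.8 CPM in mesonephric tubules of the XY control and 4.495 in E11.5 KO, a ratio of -1.41 (-2.09 to -0.81). It passed the minimum there only through the XY control, where it was high. In germ cells it was at 51.0 and 79.2 CPM, a ratio of 0.65 (0.37 to 0.92). Vegfa, the vessel growth factor, and Ddit4, an inhibitor of mTOR signalling, were called lower in sympathoadrenal cells, where 4.77% of all genes tested were called lower. There Vegfa had 49.4 CPM in the XY control and 28.95 in E11.5 KO (ratio -0.69, -1.39 to -0.09), and it passed the minimum only through the XY control. Ddit4 was at 87.1 and 51.2 CPM (-0.70, -1.20 to -0.25). In interstitial progenitors Ddit4 was at 37.7 and 63.3 CPM, a ratio of 0.88 (0.61 to 1.15). The difference between types was not tested.

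Mesonephros cells were the largest type, with 11121 cells in the XY control and 8863 in E11.5 KO, and all 34 members were tested there. The 16 called higher were 5 enzymes, all 4 genes of transport and flux, Egln3, and 6 other HIF-induced genes. Of these, Hk2, Pgk1, Pgam1, Slc2a3, Higd1a and Cox4i2 were past the limit in 2 of the 4 pairings of libraries and Egln3 in the 1 in which it could be tested. No member was called lower, where 3.08% of all genes tested were. Median ratios were 0.49 for the enzymes, 0.67 for transport and flux and 0.53 for the other HIF-induced genes. After thinning, the enzymes had a mean of 8.35 UMIs per cell in the XY control, 11.1 in E11.5 KO, 5.97 in E11.75 KO and 8.58 in the XX control.

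In E11.75 KO the median of the enzymes lay on the other side of the XY control, though not every enzyme did. This sample is also of a later stage than the control, so that stage and deletion cannot be told apart. In pre-supporting cells 7 of 30 members tested were called lower (Gapdh, Pgk1, Eno1, Pkm, Ankrd37, Higd1a and Mif), where 14.0% of all genes were. Called higher were Adm and Ndrg1, or 2 members, where 9.16% of all genes were. Without subtracting the median gene, 4 were called higher and 4 lower, where 18.1% and 7.01% of all genes were. The median was -0.51 for the enzymes, 0.25 for transport and flux and -0.07 for the other HIF-induced genes. Gapdh had a ratio of -1.11 (-1.17 to -1.05) and Ankrd37, an ankyrin repeat protein, -1.42 (-1.79 to -1.08), from 43.4 CPM in the XY control to 18.3. Ndrg1, a stress-response gene, had 17.6 CPM in the XY control, 18.4 in E11.5 KO, 34.2 in E11.75 KO and 17.8 in the XX control, a ratio of 0.77 (0.43 to 1.11).

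Gapdh was called lower in 11 of 11 types compared at E11.75, Mif in 9 of 11, and Ndrg1 higher in 5 of 8. Over all genes tested, between 9.32% (mesonephric tubules) and 15.7% (sympathoadrenal cells) were called lower in these types, and between 5.03% (mesonephric tubules) and 12.5% (Sertoli cells) higher. Pdk1 stood above the median gene in 10 of 10 types at E11.75 and was highest in mesonephric epithelium, at 34.2 CPM in the XY control, 57.2 in E11.5 KO, 95.1 in E11.75 KO and 19.6 in the XX control. In mesonephros cells at E11.75, 3 of 34 members were called higher (7.58% of all genes) and 8 lower (12.9%). In Sertoli cells at E11.75, with 168 cells, the enzyme median was -0.61. Some enzymes did not follow across types at E11.75. The median over the types tested was 0.28 for Hk1, 0.28 for Hk2, 0.51 for Pfkp and 0.14 for Pfkm. It was below 0 for each of the other enzymes.

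In the sample at E11.75 the ratios also went up with the annotated 3′ UTR length of the genes. Over 9485 genes in pre-supporting cells, the relative log2 ratio and the length of the longest 3′ UTR had a Spearman correlation of 0.38, against -0.12 in E11.5 KO and -0.22 in the XX control. The points are genes of the same libraries and are not independent. The median 3′ UTR was 784 bases for the enzymes and 2593 for transport and flux, against 1236 for the genes tested. Mitochondrial genes held 6.18% of pre-supporting UMIs at E11.75 and between 3.44% and 4.74% in the other samples. The part of 3′ UTR length and of RNA quality in the enzyme values was not tested.

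The XX control has no deletion but differs in sex, breeding and depth and in how the authors filtered cells. It was close to the XY control by the median of the enzymes. Gapdh, with a median of 0.58 over types, was called higher in 6 of 12 types. Pfkl, with a median of -0.41, was called lower in 3 of 12. Over all genes, between 1.64% (mesonephric epithelium) and 13.9% (immune cells) were called higher, and between 3.75% (germ cells) and 9.81% (immune cells) lower. In pre-supporting cells 1 of 29 members tested, Pfkm, was called higher (2.91% of all genes), and 2, Pfkfb3 and Ddit4, lower (5.17%). Median ratios were 0.03 for the enzymes, -0.39 for transport and flux and 0.02 for the other HIF-induced genes. Pfkfb3 had a ratio of -1.37 (-1.96 to -0.84) and passed the minimum only through the XY control, where it was high. Ddit4 had a ratio of -0.59 (-0.79 to -0.39). In mesonephros cells 1 of 33 was called higher, Gapdh (2.83% of all genes), and 4 were called lower, Aldoc, Slc2a3, Pdk1 and Bhlhe40 (4.74%). Transport and flux stood below the median gene in each of the 11 types with such a member tested in the XX control, as the plot of medians by type shows.

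**Figure D4:**
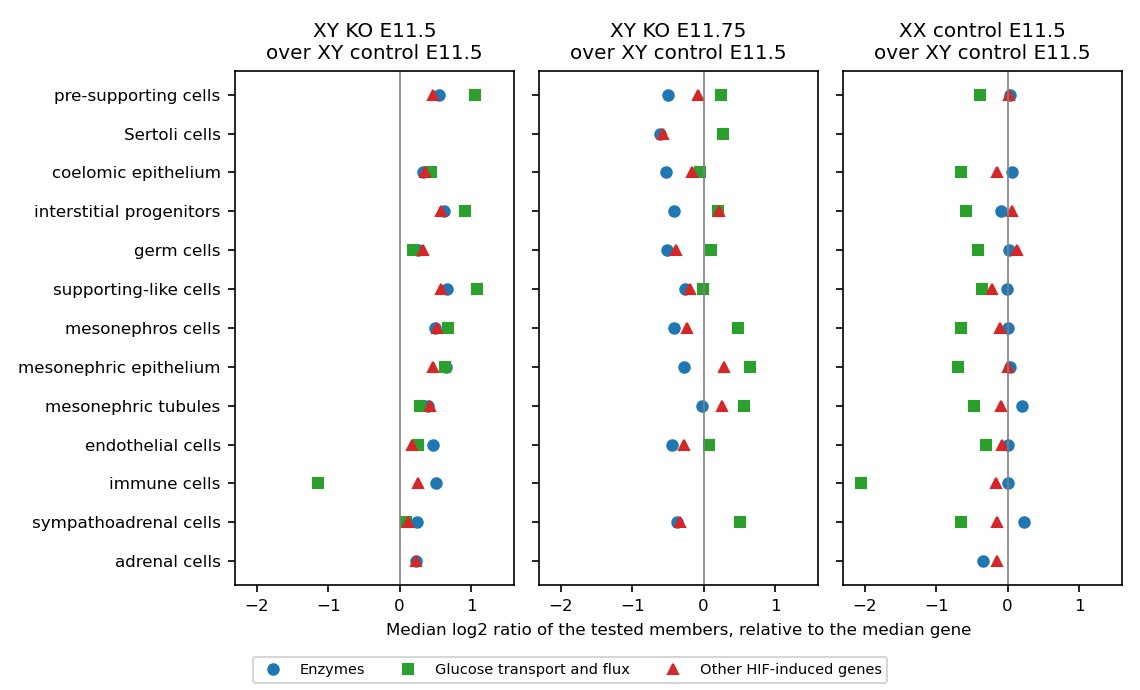
Median relative log2 ratio of the tested members of 3 roles in each cell type, 1 panel per sample compared with the shared XY control E11.5, with a grey line at no difference. In XY KO E11.5 the enzymes are to the right of the line in all 12 types, in XY KO E11.75 they are to the left in the 11 types compared, and in the XX control they lie around it with transport and flux to the left.

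Genes of the neighbouring pathways that were not members were counted from lists that were chosen with earlier results known. In E11.5 KO pre-supporting cells 10 of 35 tested genes of a list of other HIF targets and pathway genes were called higher and 2 lower, where 4.13% and 5.60% of all genes were, with a median of 0.32. In mesonephros cells 6 of 42 were called higher and 2 lower, where 2.90% and 3.08% of all genes were, with a median of 0.08. Over all cells of a sample 4 of 44 were higher and 2 lower, where 3.27% and 7.17% of all genes were, with a median of 0.16. The highest were Ak4, a mitochondrial adenylate kinase, at 4.57 CPM in the XY control and 18.2 in E11.5 KO (ratio 2.08), and Slc16a3, the lactate exporter, at 41.4 and 115 CPM (1.57). The lowest were Angptl4, a lipase inhibitor, at 90.2 and 35.7 CPM (-1.24), and Stc2, at 47.6 and 28.03 CPM (-0.67). The list thus held known HIF targets in both directions.

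Sugar metabolism outside the members and the citric acid cycle gave 0 called in either direction of 20 and 21 genes tested, with medians of 0.05 and -0.06. The former ranged from Tigar (-0.45) and Mpc2 (-0.40) to Pdha1 (0.21) and Pdk2 (0.56), and the latter from Ogdh (-0.44) and Mdh1 (-0.21) to Sdhb (0.16) and Idh2 (0.22). ATF4 and unfolded protein response genes gave 0 higher and 2 lower of 14, with a median of -0.13, and their highest were Shmt2 (0.44) and Herpud1 (0.39). The lowest were Phgdh (-0.79) and Asns, asparagine synthetase, at 215 CPM in the XY control and 68.5 in E11.5 KO (-1.56). Immediate early and heat shock genes, which answer tissue handling, also gave 0 higher and 2 lower, of 13, with a median of -0.38, from Egr1 (-1.52) and Jun (-1.02) to Jund (0.29) and Ier3 (0.55). Beside the 4.13% of all genes called higher and 5.60% called lower, lists of this length cannot set 0 to 2 calls apart from other genes. The immediate early and heat shock genes summed to 981 CPM in the XY control, 842 in E11.5 KO, 1009 in E11.75 KO and 1080 in the XX control.

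Contents of red blood cells moved with the groups too. The 10 erythroid markers summed in pre-supporting cells to 2730 CPM in the XY control, 1158 in E11.5 KO, 1603 in E11.75 KO and 845 in the XX control, with 1 of the 10 at 0 in E11.5 KO and in the XX control. Per the study's methods, the limit on beta globin above which cells were removed was set for each XY sample, highest for the XY control and lowest for E11.5 KO, the order of these sums. Slc2a1 and Bnip3l are known to be expressed in erythroid cells too. Ribosomal protein genes held 16.85%, 21.03%, 14.73% and 19.67% of UMIs in these samples, the same order as the enzyme sums. The part of blood content and of ribosomal share in the member values was not tested.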

How the data were processed

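Gonads with mesonephros were dissociated, fixed in methanol and profiled with 10x Genomics 3′ libraries. Per the submitters' notes, reads were aligned to mm10 with Cell Ranger 6.1.1 and cells were analysed with Seurat. The values deposited are unnormalised UMI counts of genes in single cells, made by the authors after removing low-quality cells and doublets. All values in it were checked to be whole. Samples were grouped by their labels and cells by the deposited types. UMIs were summed per type and sample and divided by the total to give CPM. Log2 ratios used a prior count of 0.5, with intervals from the Poisson, binomial or Clopper-Pearson distribution. Types with at least 50 cells in both samples were compared. With 1 pool per group no test was run. The technical replicate libraries of a sample were added together.

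The members, lists and rules were chosen with earlier results of these data known. Full values were given for the 5 highest and 5 lowest tested members in XY KO E11.5 pre-supporting cells and for Hif1a, Egln1, Egln3, Slc2a1, Pdk1, Gapdh and Pgk1. From each other list the 2 highest and 2 lowest tested genes were named. Members given in other types, and the values of Ankrd37, Ndrg1, Pfkl, Hk2, Pfkfb3 and Slc2a3, were picked after their values were seen. Alternatives covered scaling (edgeR TMM among them), limits, cells and libraries. Scripts ran in Python 3.11.15 with numpy 2.4.6, scipy 1.17.1, pandas 2.3.3 and matplotlib 3.10.9, and in R 4.3.3 with edgeR 4.0.16, and were tested on simulated data.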

Additional observations from a re-analysis of the deposited data

Results flagged for a closer look

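The enzymes as a set took opposite directions in pre-supporting cells of both KO samples against the shared XY control. At E11.5 their median relative log2 ratio over the control was 0.55, and at E11.75 it was -0.51. With 1 pool per group the difference was not tested, and stage differs between the samples as well.

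Within XY KO E11.5, 3 members were called in opposite directions in different cell types, and none of these differences was tested. The lower calls of Slc2a3 in mesonephric tubules and of Vegfa passed the minimum only through the XY control. How many of all genes were called in both directions was not counted. Slc2a3 had a relative log2 ratio of -1.41 in mesonephric tubules and 0.65 in germ cells. Vegfa had a ratio of -0.69 in sympathoadrenal cells and 0.61 in supporting-like cells. Ddit4 had a ratio of -0.70 in sympathoadrenal cells and 0.88 in interstitial progenitors.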

How the results depend on the processing

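All values here are for pre-supporting cells except where other cells are named. In XY KO E11.5, over all alternatives run, the median of the enzymes was between 0.46 and 0.58, that of transport and flux between 0.53 and 1.21, and that of the other HIF-induced genes between 0.36 and 0.65, with 0 members called lower in each alternative. In alternatives chosen after seeing the data, 11 members were called higher without those that passed the minimum only through this sample, and the mean UMIs of the other HIF-induced genes per cell were 1.26 times those of the XY control without Mif, against 1.48 with it. The enzyme median was 0.46 without subtracting the median gene and 0.47 over all cells of a sample, where transport and flux was 0.53. With Sertoli cells added to the pre-supporting cells the other HIF-induced genes were at 0.65. The 13 members called higher became 24 at a looser limit for a call of 0.32 on the log2 scale and 6 at a stricter limit of 2-fold, where 13.3% and 0.956% of all genes were called higher.

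In XY KO E11.75, with the share of all genes called in the same alternative in brackets, the 2 members called higher became 4 without subtracting the median gene (18.1%), 1 with a minimum of 500 UMIs (7.99%), 5 with no minimum (20.8%), 4 at the looser limit (23.5%) and 0 at 2-fold (195 of 9742 genes). The 7 called lower became 4 without that subtraction (7.01%), 3 with a minimum of 500 UMIs (11.4%), 15 at the looser limit (27.6%), 2 at 2-fold (2.82%), and 4 against control library rep1 alone (12.9%). The enzyme median was -0.32 without the subtraction and -0.28 over all cells. The other HIF-induced genes were at -0.36 with Sertoli cells added and at 0.19 over all cells.

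In the XX control, the 1 member called higher became 0 without the subtraction (1.98%), with a minimum of 500 UMIs (1.49%), at 2-fold (0.664%) and for library rep2 over control rep2 (2.70%). It became 2 for rep2 over control rep1 (3.18%), 3 for rep1 over control rep1 (3.07%), for the mean of CPM over cells (343 of 9795 genes) and with Sertoli cells added (5.06%), 4 in cells of 3000 to 10000 UMIs (14.8%), and 5 at the looser limit (13.0%). The 2 called lower became 1 with a minimum of 500 UMIs (3.34%), for the mean of CPM over cells (6.20%), at 2-fold (1.16%) and in each of the 4 library pairings (4.96% to 6.26%), 4 in cells of 3000 to 10000 UMIs (20.6%), 5 with no minimum (16.1%) and over all cells (5.46%), and 6 at the looser limit (16.4%). That window of depth left 25 cells of the XX control, under the minimum of 50. The enzyme median was -0.08 without the subtraction, 0.13 for the mean of CPM and 0.10 for rep1 over control rep1. Transport and flux was at -0.78 with no minimum. The other HIF-induced genes were at -0.24 with no minimum and -0.23 in cells of 3000 to 10000 UMIs. The cause of these shifts was not tested, except that a limit or minimum changes which genes can be called.

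No paired analysis was possible because each group was 1 pool and its rep1 and rep2 are technical replicate libraries of that pool. Every value rests on 1 pool per group, intervals cover counting error alone, and depth limits Egln3, Slc2a3 and Bhlhe40, which had too few UMIs for a call in pre-supporting cells.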
